A study of Mus musculus with 8 samples.

Results

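Small nucleolar RNA (snoRNA) genes were followed in single mouse oocytes at MII, the metaphase of meiosis II at which the ovulated egg waits for fertilization. The genes were chosen by their measured FPKM: all rows named Snord (C/D box) or Snora (H/ACA box) with an FPKM above 0 in at least 1 of the 8 oocytes were taken. FPKM counts the fragments of a gene relative to its length in kilobases and to the library total. This rule kept 33 of 111 such rows, 13 of 72 C/D box genes and 20 of 39 H/ACA box genes, out of 37620 gene identifiers in all. As the rule read the measured values, the share of rows detected is a description of these libraries.

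The 4 control oocytes, called WT, were Hira f/f by their genotype label, and the 4 oocytes called KO were Hira f/f with Gdf9-Cre, a recombinase driven by a promoter active in oocytes from the primordial follicle on, so Hira is removed in the germ cell and not in the somatic cells of the ovary. All were C57BL/6, both genotypes carry the floxed alleles, and no age or female was named. A Gdf9-Cre tag also stands in the title of each WT sample, and the grouping used here rests on the genotype and description labels. Hira encodes a chaperone that places histone H3.3 into chromatin. WT oocytes are numbered 1, 2, 4 and 5 and KO oocytes 1, 3, 5 and 6, as in the labels.

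snoRNAs are short, stable nuclear RNAs that guide the chemical modification and cleavage of ribosomal RNA. C/D box snoRNAs bind fibrillarin, Nop56, Nop58 and Snu13 and direct methylation of ribose, and H/ACA box snoRNAs bind dyskerin, Nhp2, Nop10 and Gar1 and direct conversion of uridine to pseudouridine. Most mammalian snoRNAs are cut out of introns of host genes, many of which encode ribosomal proteins or nucleolar factors, and a few, such as Snord118 (U8) and Snord13 (U13), are transcribed from genes of their own. The libraries were made with a SMARTer kit, which starts cDNA from the poly(A) tail, whereas mature snoRNAs end without such a tail. The values therefore give the reads assigned to each snoRNA gene in such libraries, and which RNA form the reads came from was not measured.

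The sequences of 8 genes that carry most of the results are shown first, from GENCODE M21 transcripts on GRCm38, 5′ to 3′ on the transcribed strand and in DNA letters. In the C/D box genes, capitals mark a C box TGATGA within the first 20 bases and a D box CTGA within the last 20 bases, where present. In the H/ACA box genes they mark an ANANNA hexamer in the central part of the RNA and an ACA that ends 3 bases before the 3′ end, where present.
Snora47 (chr13:95330600-95330737, plus strand, intron of Zbed3): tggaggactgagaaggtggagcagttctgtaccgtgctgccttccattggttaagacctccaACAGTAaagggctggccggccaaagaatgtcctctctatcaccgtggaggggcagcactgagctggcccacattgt
Snora30 (chr7:127527874-127528003, plus strand, intron of Srcap): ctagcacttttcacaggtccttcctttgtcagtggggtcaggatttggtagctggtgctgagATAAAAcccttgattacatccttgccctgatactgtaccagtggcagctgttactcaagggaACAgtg
Snora21 (chr11:97781639-97781775, minus strand, intron of Rpl23): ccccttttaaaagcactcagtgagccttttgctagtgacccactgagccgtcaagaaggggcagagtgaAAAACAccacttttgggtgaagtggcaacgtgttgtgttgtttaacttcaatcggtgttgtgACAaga
Snora75 (chr1:86351169-86351301, minus strand, within Ncl): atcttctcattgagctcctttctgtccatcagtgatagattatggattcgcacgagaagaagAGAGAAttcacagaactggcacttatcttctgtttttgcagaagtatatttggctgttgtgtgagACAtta
Snora33 (chr10:23785347-23785475, minus strand, within Rps12): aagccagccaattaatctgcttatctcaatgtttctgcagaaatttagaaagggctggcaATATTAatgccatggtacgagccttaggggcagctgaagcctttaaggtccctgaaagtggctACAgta
Snord17 (chr2:144265979-144266216, minus strand, intron of Snx5): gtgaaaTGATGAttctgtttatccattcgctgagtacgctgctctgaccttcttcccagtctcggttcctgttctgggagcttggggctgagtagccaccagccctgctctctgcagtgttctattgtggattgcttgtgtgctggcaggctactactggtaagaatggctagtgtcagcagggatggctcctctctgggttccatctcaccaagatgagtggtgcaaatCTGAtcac
Snord118 (chr11:69073427-69073561, plus strand, no host listed): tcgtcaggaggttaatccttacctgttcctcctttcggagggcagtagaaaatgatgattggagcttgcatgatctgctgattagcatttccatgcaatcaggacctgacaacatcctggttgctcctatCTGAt
Snord104 (chr11:106500993-106501062, plus strand, no host listed): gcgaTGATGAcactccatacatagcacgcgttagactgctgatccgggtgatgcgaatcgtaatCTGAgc

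The boxes follow the class names. The D box letters CTGA stood in the last 20 bases of 70 of 72 C/D box rows and of all 13 detected ones, against 4 of 39 H/ACA box rows and 13.0% of 8287 other annotated transcripts of 60 to 250 bases. The C box letters TGATGA stood in the first 20 bases of 48 of 72 C/D box rows, 10 of the 13 detected ones, no H/ACA box row and 3.81% of the other short transcripts. An ACA ending 3 bases before the end was found in 32 of 39 H/ACA box rows, 17 of the 20 detected ones, no C/D box row and 4.83% of the other short transcripts. The hexamer ANANNA, with N any base, was found in the central part of 36 of 39 H/ACA box rows, but also in 60.3% of the other short transcripts. Only the transcribed strand was searched. The annotated end of Snora47 holds no ACA at that place, and the annotated start of Snord118 and Snord13 holds no TGATGA. An ACA does stand slightly further from the end of Snora47. In Snord118 and Snord13 a TGATGA stands beyond the first 20 bases. No detected gene shares its whole sequence with a transcript from another locus.

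Library totals lay between 38032455 and 50208686 reads, and a single read in a gene of 130 bases was worth 0.153 to 0.202 FPKM. Genes with an FPKM of at least 1 numbered 7121 to 7467 in WT oocytes and 7827 to 8512 in KO oocytes. Reads outside the listed genes made up 13.8% to 15.6% of the WT libraries and 19.7% to 25.0% of the KO libraries, and their part in the differences below was not tested. Hira itself held 42, 0, 96 and 1 reads in the WT oocytes and 0, 2, 0 and 2 in the KO oocytes, so 2 WT oocytes were as low as the KO ones. Oocyte genes were high in every library, with Dppa3 at 9489 to 15236 FPKM in WT and 6012 to 7946 FPKM in KO. Summed markers of red blood cells reached at most 0.151 FPKM and those of white blood cells at most 1.81 FPKM. The cumulus and granulosa list summed to 14.8 to 34.1 FPKM, mostly Cyp19a1, with Foxl2, Amhr2 and Cyp11a1 at 0 in all 8 oocytes. Nr5a2 of this list was read in all 8, at 0.356 to 2.83 FPKM in WT and 2.01 to 6.49 FPKM in KO. Its mean was 2.78-fold higher in KO. Of the endothelial list, Cdh5 was at 0 in all 8 oocytes, whereas Pecam1 lay between 2.88 and 6.95 FPKM in WT and between 0.718 and 1.37 in KO. Each genotype is counted as 1 sample, since the oocytes are single cells with no female named. No test between genotypes is given, and SDs describe the spread between oocytes.

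Nearly all snoRNA reads belonged to H/ACA box genes. The 33 genes held 6335 reads over the 8 oocytes, of which 6096 fell in the 20 H/ACA box genes and 239 in the 13 C/D box genes. Snora47 alone held 4871 reads, 76.9% of the total. It was followed by Snora30 with 460, Snora21 with 200 and Snora75 with 139 reads, and the C/D box gene with most reads was Snord17 with 97. Counts were thin elsewhere. 14 of the 33 genes held at least 20 reads, 8 were read in all 8 oocytes, 5 were read in a single oocyte, and 16 had at least 50% of their reads in a single oocyte. At the edge of the rule stood Snord23 and Snord65 with 2 reads each and Snord58b, Snora69 and Snora62 with 3 reads each, while the other 78 rows held 0. In a library, 0 reads allow up to 3, which is 0.766 to 1.01 FPKM for a C/D box row of the median undetected length of 78 bases and 0.453 to 0.598 FPKM for an H/ACA box row of 132 bases. These limits cover counting error only, since PCR copies of the same cDNA are counted as separate reads.

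**Figure D1:**
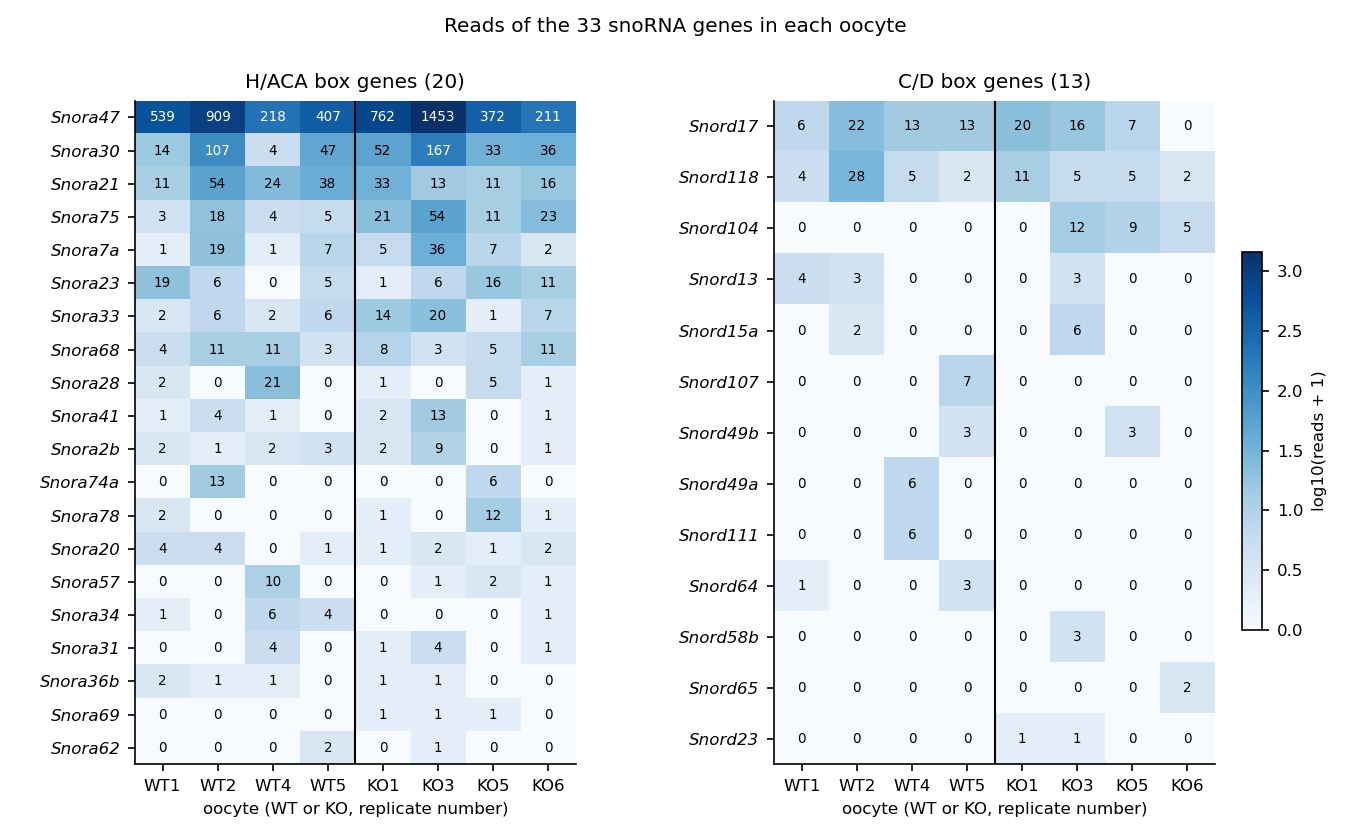
Reads of the 33 detected snoRNA genes (rows, H/ACA box left and C/D box right) in each of 4 WT and 4 KO oocytes (columns), with the number of reads in each cell and its log10(reads + 1) as colour. Snora47 is the darkest row in every oocyte, with 211 to 1453 reads, and most C/D box cells are 0.

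Detection was more frequent among H/ACA box genes, at 51.3% of rows, than among C/D box genes, at 18.1%. Across all listed genes 49.0% had a read, and across listed genes of 60 to 250 bases 12.5% had. Other classes of short RNA lay lower than the H/ACA box genes, with 8.23% of 1081 other snoRNA rows, 5.23% of 1110 miRNA rows and 4.42% of 1086 snRNA rows read. The scaRNAs, relatives of snoRNAs that guide the modification of spliceosomal RNAs in Cajal bodies, were near the H/ACA box genes with 43.2% of 37 rows. 

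Over both classes together, detected rows had a median of 131 bases and undetected rows of 84.5, and exon overlap differed too. Within a class the medians were close. They were 72 bases with a read and 78 without for the C/D box, and 132.5 and 132 for the H/ACA box. Every H/ACA box row was at least 121 bases long, and C/D box rows had a median of 78 bases. Among C/D box rows of under 100 bases 8 of 61 (13.1%) had a read, and among those of 100 bases or more 5 of 11 (45.5%). Rows that share no base with an annotated exon of another gene, host included, were read more often in both classes. Among H/ACA box rows these were 11 of 13 (84.6%), against 9 of 26 (34.6%) of the rows in an exon. Among C/D box rows they were 10 of 36 (27.8%) against 3 of 36 (8.33%). For rows of at least 100 bases in either class and outside exons, 16 of 21 (76.2%) had a read. Length, class and overlap go together in these rows, and their separate parts were not tested.

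**Figure D2:**
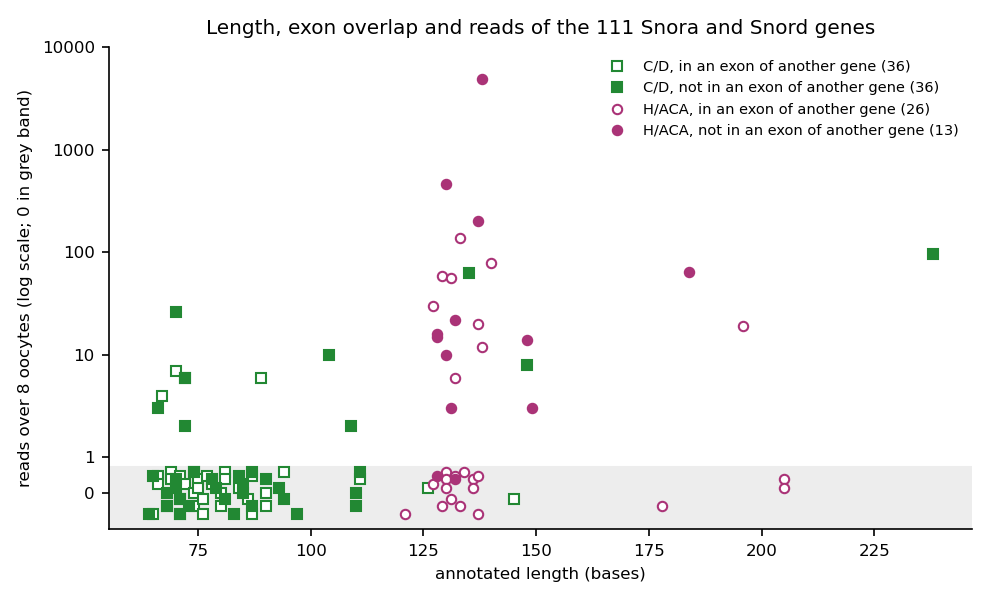
Reads summed over the 8 oocytes (vertical axis, log scale, with 0 in the grey band) against annotated length in bases for all 111 Snora and Snord rows. Squares are C/D box and circles H/ACA box genes, and filled symbols lie outside the annotated exons of other genes. The dense grey-band group of C/D box genes under 100 bases holds 53 rows without a read.

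Detection was also set against the level of the host. Of C/D box rows whose host had a mean of at least 10 FPKM, 6 of 33 were read, and of those with a lower host 4 of 33. For H/ACA box rows the counts were 10 of 14 and 8 of 19. Among H/ACA box rows in an exon they were 7 of 11 and 1 of 11, and among those outside exons 3 of 3 and 7 of 8. The median host level was 17.6 FPKM for H/ACA box rows with a read and 0.807 FPKM for those without. For C/D box rows it was 16.9 and 7.45 FPKM. A relation of detection to host level was not tested. Several well expressed hosts had no snoRNA read at all. Eif4a2, which encodes an RNA helicase of translation initiation and stood at 102.0 FPKM, carries Snord2 and Snora81 with 0 reads. Nop56 at 72.4 FPKM and Nop58 at 39.4 FPKM encode core proteins of C/D box particles and each hold 2 C/D box rows with 0 reads. Gas5, a noncoding host at 18.9 FPKM, has 3 listed C/D box rows and Rpl13a at 7.45 FPKM has 4, all with 0 reads. Snora73a and Snora73b, the U17 snoRNAs known for their role in cleaving the ribosomal RNA precursor, are in Rcc1 at 1.05 FPKM and held no read. Many of these rows overlap annotated exons. Snord2, Snora81, the Gas5 rows, Snord57 of Nop56 and Snord33 of Rpl13a lie in exons of their host. Snora73a and Snora73b lie in exons of other genes, and the remaining rows named here lie outside exons. How reads shared by genes were treated is not known, so 0 reads in an exon may depend on it.

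Of 4 hosts that carry listed rows of both classes, Eif4a2 and Snhg12 had no read in either class, and Ncl and Rps12 had reads in the H/ACA box gene only. Ncl, which encodes the nucleolar protein nucleolin, had 139 reads in the H/ACA box gene Snora75 and 0 in the C/D box gene Snord82. Rps12 had 58 reads in Snora33 and 0 in Snord100. Kansl2, at a mean of 36.2 FPKM, had reads in both of its H/ACA box genes, 20 in Snora2b and 12 in Snora34. In Rps3, Snord15a had 8 reads and Snord15b 0. The noncoding host 2410006H16Rik at 69.0 FPKM was the only host with 3 detected genes, and Snord49a, Snord49b and Snord65 together held 14 reads, all in WT oocytes 4 and 5 and KO oocytes 5 and 6. Gm38393 on chromosome 7, within the imprinted Snrpn region, holds Snord107 with 7 reads, all in WT oocyte 5, and Snord64 with 1 read in WT oocyte 1 and 3 in WT oocyte 5. No read of Snord107 or Snord64 was found in a KO oocyte. Their WT means of 0.657 and 0.381 FPKM lie below a level of 3 reads per library, so no fold is given.

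A host was listed for 28 of the 33 genes, in 24 different hosts, 22 of them protein-coding and 8 of them ribosomal protein genes. In 9 pairs the snoRNA gene lay in an annotated exon of its host, so the levels of a pair may not be separate. The snoRNA gene stood below its host in 23 of 28 pairs and above it in 5. The median log2 ratio of snoRNA gene to host, on the log2(FPKM + 1) scale, was -3.36 for 18 H/ACA box genes and -3.83 for 10 C/D box genes. By oocyte, the H/ACA box median ran from -3.79 in KO oocyte 5 to -2.28 in KO oocyte 3 and the C/D box median from -4.79 in KO oocyte 6 to -2.31 in WT oocyte 5, so the ranges of the classes overlap. Only 1 C/D box gene with a host, Snord17, had at least 20 reads, and its log2 ratio of 0.17 had the opposite sign to the class median. Across the 28 pairs, Spearman's rho between the levels was 0.14, with 0.27 for the H/ACA box and -0.01 for the C/D box pairs. The pairs share libraries and their counts are sparse, so no relation is read from these values.

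Snora30 and Snora21, next in abundance to Snora47, were among the genes above their host. Snora30 averaged 10.6 FPKM, 131.6-fold above the 0.08 FPKM of Srcap, which encodes the ATPase of a chromatin remodelling complex. Most of the Srcap mean came from WT oocyte 4, and without that oocyte the ratio was 270.7-fold, at 12.0 and 0.044 FPKM. Snora30 was at 2.50, 18.2, 0.613 and 9.51 FPKM in the WT oocytes and 9.25, 32.9, 5.75 and 5.85 FPKM in the KO oocytes. Srcap did not exceed 0.332 FPKM in any oocyte, so Snora30 lay above it in all 8. Snora23 averaged 1.00 FPKM, 3.75-fold above Ipo7, a nuclear import receptor gene at 0.27 FPKM. Snora23 was read in 7 oocytes, with most reads in WT oocyte 1 (19), KO oocyte 5 (16) and KO oocyte 6 (11). Snora78 and its noncoding host Snhg9 were at 0.354 and 0.194 FPKM, and 12 of the 16 Snora78 reads came from KO oocyte 5, without which Snora78 was at 0.876 of its host. Snora21 and the ribosomal protein gene Rpl23, at 4.20 and 3.53 FPKM, were within 1.19-fold of each other, as were Snord17 and Snx5, a sorting nexin gene, at 1.19 and 0.949 FPKM with a ratio of 1.25. These last ratios are smaller than the spread between oocytes, in which Rpl23 ran from 1.41 to 6.72 FPKM and Snx5 from 0 to 1.72 FPKM. The Snx5 range follows genotype, at 0 to 0.812 FPKM in WT and 1.25 to 1.72 FPKM in KO, with a 3.79-fold higher KO mean. Mean Snord17 was above Snx5 in WT, at 1.29 against 0.396 FPKM. In KO mean Snord17, at 1.08 FPKM, was below Snx5. Single KO oocytes differed, with Snord17 above Snx5 in KO oocytes 1 and 3 and below it in KO oocytes 5 and 6. The ratio of 1.25 over all 8 oocytes therefore does not hold within each genotype.

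**Figure D3:**
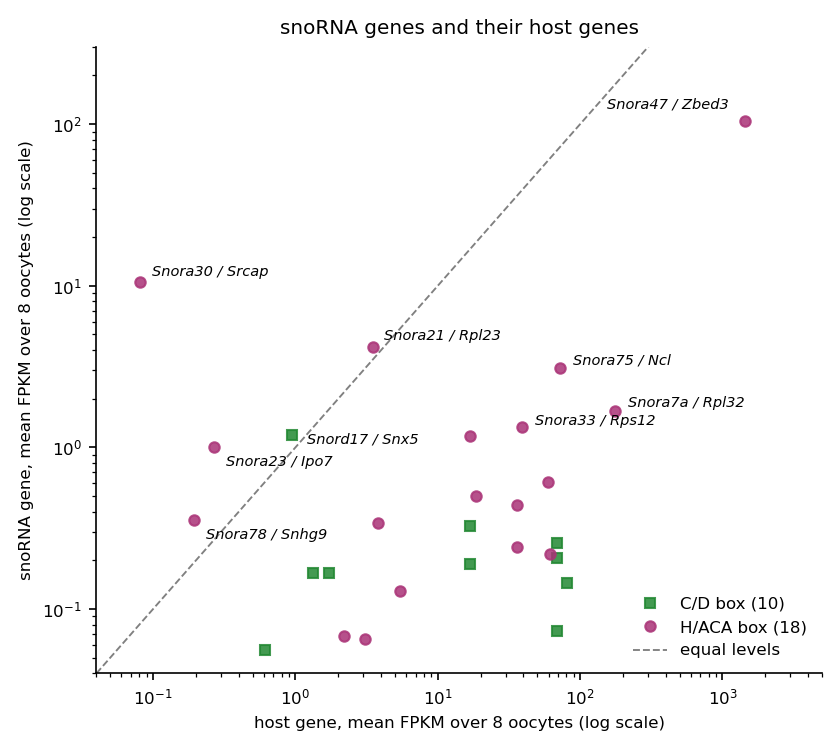
Mean FPKM over 8 oocytes of 28 snoRNA genes (vertical axis) and of their host genes (horizontal axis), both on log scales, with C/D box genes as squares, H/ACA box genes as circles and a dashed line at equal levels. Snora30, Snora23, Snora78, Snora21 and Snord17 lie above the line and the other 23 below it.

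Snora47 was the most abundant snoRNA gene in every oocyte and sits in an intron of 9111 bases of Zbed3, which encodes an Axin-binding zinc finger protein. It stood at 90.5, 145.4, 31.5 and 77.5 FPKM in the WT oocytes and at 127.7, 270.0, 61.1 and 32.3 FPKM in the KO oocytes. Zbed3 stood at 2677, 1505, 1613 and 1495 FPKM in the WT oocytes and at 1224, 1113, 987 and 914 FPKM in the KO oocytes. Every KO oocyte was thus below every WT oocyte for the host, while the genotypes overlapped for the snoRNA gene. The fall was not particular to Zbed3. Of the 10 oocyte genes checked, Zp2, Bmp15, Dppa3 and Oosp1 were also lower in every KO oocyte, and the others overlapped. The median difference of log2(FPKM + 1) of that list was -0.60, against -0.75 for Zbed3. The share of all genes without overlap is not given here. Snora47 as a share of Zbed3 FPKM ran from 1.95% in WT oocyte 4 to 24.2% in KO oocyte 3. The highest level was 8.58-fold above the lowest for Snora47 and 2.93-fold for Zbed3, and the oocyte with most Zbed3, WT oocyte 1, was the fourth by Snora47.

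Distances to the next exon overlapped between the classes, and their medians differed. Of the rows that lie wholly in an intron, 33 C/D box rows had a median of 92 bases to the downstream exon (55 to 3954) and 15 H/ACA box rows a median of 176 bases (64 to 77876). The detected genes had medians of 84 bases (7 C/D box) and 172 bases (12 H/ACA box), close to those of all rows of their class. The detected genes furthest from the next exon were Snora47 with 5318 bases, Snord17 with 3954 and Snora36b with 3597.

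Individual oocytes differed more than the genotypes did. The summed FPKM of the 33 genes was 104.0, 192.5, 49.8 and 107.8 in the WT oocytes and 156.9, 344.1, 84.4 and 52.6 in the KO oocytes, a 6.91-fold range. KO oocyte 3 and WT oocyte 2 stand apart at the top of their genotypes. Without Snora47 the sums were 13.5, 47.2, 18.4 and 30.3 in WT and 29.2, 74.2, 23.3 and 20.3 in KO, with the same oocytes at the top. Of the 14 genes with at least 20 reads, KO oocyte 3 was the highest of all 8 for 8 genes and WT oocyte 2 for 4. Within WT, oocyte 2 was the highest for 9 of the 14, and within KO, oocyte 3 for 8. The exceptions include Snora23, highest in WT oocyte 1, and Snora28, a gene in the translation factor gene Eif5, with 21 of its 30 reads in WT oocyte 4. Summed scaRNA genes were also highest in these oocytes within each genotype, at 31.8 FPKM in WT oocyte 2 and 39.6 FPKM in KO oocyte 3, with KO oocyte 1 close at 37.9. Other snoRNA rows were highest in KO oocyte 6 and miRNA rows in KO oocyte 1.

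**Figure D4:**
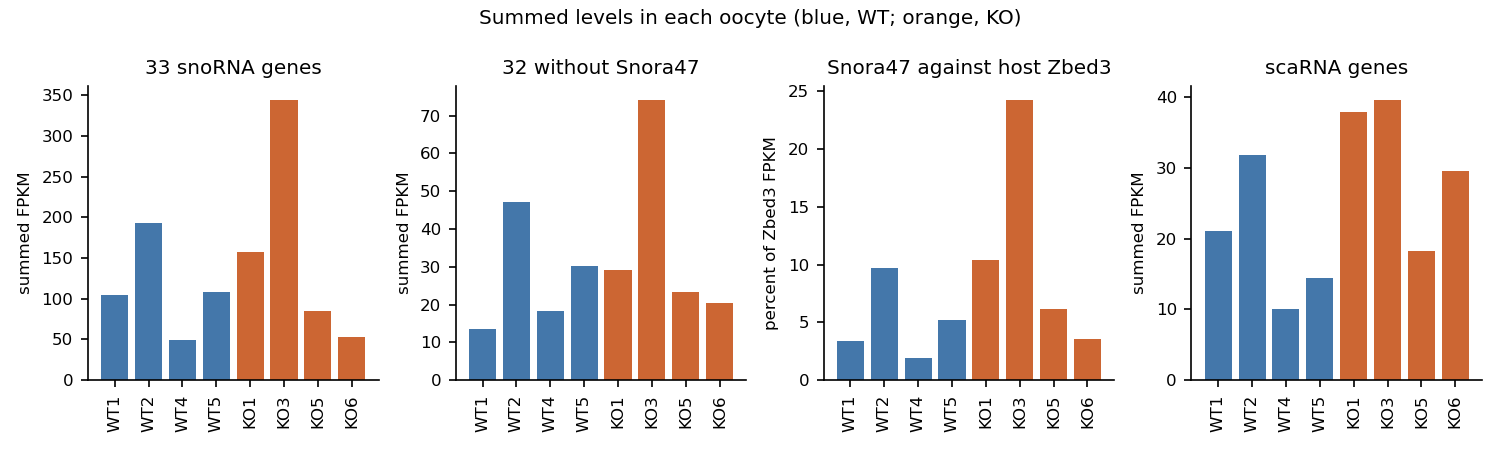
Bars give, for each of 4 WT (blue) and 4 KO (orange) oocytes, the summed FPKM of all 33 snoRNA genes, the same without Snora47, Snora47 as a percentage of the FPKM of its host Zbed3, and the summed FPKM of scaRNA genes. KO oocyte 3 is the highest in all 4 panels, at 344.1, 74.2, 24.2% and 39.6, and WT oocyte 2 is the highest WT oocyte in each.

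The mean summed FPKM was 113.5 ± 58.9 (SD, 4 oocytes) in WT and 159.5 ± 130.6 (SD, 4 oocytes) in KO, a ratio of 1.40 that is smaller than the spread between oocytes. Without KO oocyte 3 the ratio was 0.863, and without both KO oocyte 3 and WT oocyte 2 it was 1.12. H/ACA box genes summed to means of 108.1 and 154.0 FPKM in WT and KO, and C/D box genes to 5.40 and 5.51 FPKM. Oocytes with a read in a given gene were as common in both genotypes for the C/D box, at 17 gene and oocyte pairs each. They numbered 54 in WT and 62 in KO for the H/ACA box, a ratio of 1.15. By another measure, all genes with an FPKM of at least 1 per library, the KO to WT ratio was 1.12. The H/ACA box count is therefore not read as particular to that class.

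A comparison of genotypes gene by gene was limited to genes with an FPKM of at least 1 in at least 4 oocytes, which 8 of the 33 passed: Snora47, Snora30, Snora21, Snora75, Snora7a, Snora33, Snora68 and Snord17. Snora75 passed mainly through the KO oocytes, as only 1 WT oocyte reached 1 FPKM. Mean FPKM was at least 2-fold higher in KO for 2 of the 8, Snora75 and Snora33, and at least 2-fold lower for none. Over all 7833 genes compared, 18.3% passed 2-fold towards KO and 6.84% towards WT. With so few genes these counts cannot be set apart from that background. The median KO minus WT difference of log2(FPKM + 1) was 0.34 over the 8 genes, with 5 positive and 3 negative, and 0.10 over all genes compared. Scaling by median-of-ratios size factors moved the median of all genes to -0.02, with 1170 genes higher and 710 lower against 1434 and 536 as deposited, and moved the median of the 8 genes to 0.22. In all 8 genes the WT and KO oocytes overlapped.

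Snora75, a guide known as U23, was at 0.523, 2.99, 0.599 and 0.988 FPKM in the WT oocytes and 3.65, 10.4, 1.87 and 3.65 FPKM in the KO oocytes. KO oocytes 1, 3 and 6 lay above all WT oocytes and KO oocyte 5 below WT oocyte 2. The reads summed to 30 in WT (95% exact Poisson interval 20.2 to 42.8) and 109 in KO (89.5 to 131.5). These intervals cover counting error only and do not compare the genotypes. Single oocytes held 3 to 18 reads in WT and 11 to 54 in KO. The mean was 3.84-fold higher in KO, a difference of 1.30 on the log2(FPKM + 1) scale. It was 2.40-fold higher without KO oocyte 3 and 6.96-fold higher without WT oocyte 2. Its host Ncl averaged 71.7 FPKM in WT and 73.2 FPKM in KO. Snora75 lies in an annotated exon of Ncl, and whether its reads came from Ncl transcripts was not tested.

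Snora33 was at 0.359, 1.03, 0.309 and 1.22 FPKM in WT and 2.51, 3.97, 0.176 and 1.15 FPKM in KO. Both the lowest and the highest oocyte were KO. The sums were 16 reads (9.15 to 26.0) in WT and 42 reads (30.3 to 56.8) in KO, where the intervals cover counting error only. The mean was 2.68-fold higher in KO and 1.75-fold higher without KO oocyte 3. Its host Rps12 averaged 34.4 FPKM in WT and 44.3 FPKM in KO. Snora33 likewise lies in an annotated exon of its host, and the source of its reads was not tested.

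The other compared genes were within 2-fold when all 8 oocytes were used. Snora30 was 1.75-fold and Snora7a, in Rpl32, 1.92-fold higher in mean FPKM in KO, but single oocytes decided these values. Without KO oocyte 3 the ratios were 0.903 and 0.653, and without WT oocyte 2 they were 3.20 and 4.09. Snora47 was 1.42-fold higher and 0.855 of the WT mean without KO oocyte 3. Snora21 was at 1.86, 8.70, 3.49 and 7.29 FPKM in WT and 5.57, 2.43, 1.82 and 2.47 FPKM in KO, which makes the WT mean 1.74-fold higher. The 2 highest Snora21 values were WT oocytes 2 and 5 and the lowest value was in KO oocyte 5. Snora68 was at means of 1.21 FPKM in WT and 1.16 FPKM in KO. Snora7a and Snora68 also lie in annotated exons of their hosts. Snord17, the only C/D box gene compared, was at 0.584, 2.04, 1.09 and 1.44 FPKM in WT and 1.94, 1.72, 0.666 and 0 FPKM in KO.

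The remaining C/D box genes with at least 20 reads have no listed host. Snord118, the U8 snoRNA needed for maturation of the large ribosomal subunit RNAs, was at 0.687, 4.58, 0.738 and 0.390 FPKM in WT and 1.88, 0.950, 0.839 and 0.313 FPKM in KO. WT oocyte 2 held 28 of its 62 reads. Snord104 had 0 reads in all 4 WT oocytes and 0, 12, 9 and 5 reads in KO oocytes 1, 3, 5 and 6. Its mean in KO was 2.20 FPKM, where a WT level of 3 reads per library is 0.980 FPKM. KO oocyte 1 did not differ from the WT oocytes. The gene entered the set through its KO reads alone, so no fold is given. Snord104 did not pass the filter for the comparison.

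**Figure D5:**
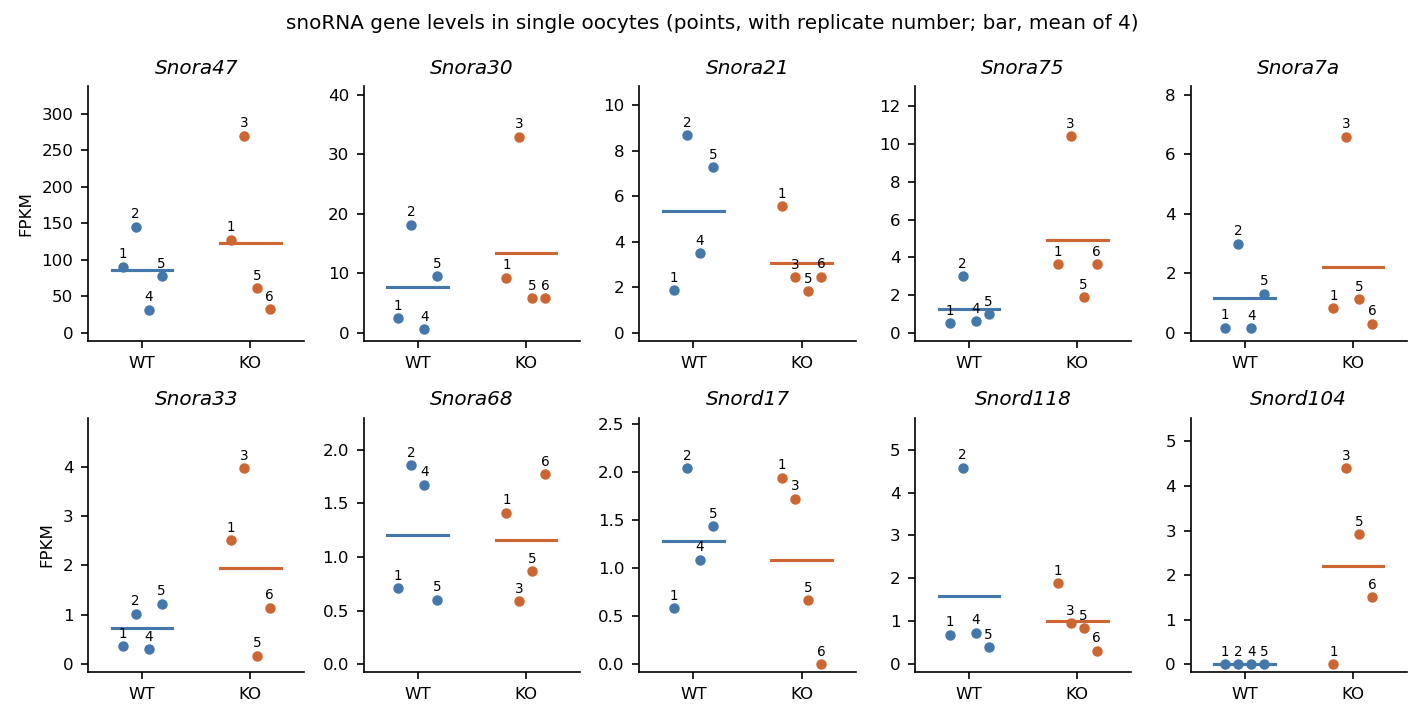
FPKM of the 8 compared snoRNA genes and of Snord118 and Snord104 in single WT and KO oocytes (points, labelled with the replicate number) with the mean of 4 oocytes as a bar, on a separate linear axis per gene. The genotypes overlap in every panel, and KO oocyte 3 is the highest point for Snora47, Snora30, Snora75, Snora7a, Snora33 and Snord104.

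Host genes and snoRNA proteins were compared in the same way. Of the hosts of the 33 genes, 20 passed the filter, 4 had a mean at least 2-fold higher in KO, and 1, Rpl17, in WT, against 18.3% and 6.84% of all genes compared. The median difference of the hosts was 0.09, against 0.10 for all genes. The 4 hosts higher in KO were Kansl2, Snx5, Rps3 and Rpl39. Snx5 passed the filter only through the KO oocytes, as no WT oocyte reached 1 FPKM. Rps3 passed mainly through them, as only WT oocyte 4 reached 1 FPKM. Kansl2 was at means of 21.4 FPKM in WT and 51.1 FPKM in KO. Of its snoRNA genes, Snora2b held 8 reads in WT and 12 in KO, and Snora34 held 11 and 1. Rpl17, the host of Snord58b, was at 113.9 FPKM in WT and 46.7 FPKM in KO. Of a list of 22 genes for snoRNA particles and their assembly, 19 passed the filter, 3 passed 2-fold towards KO and none towards WT, again beside 18.3% and 6.84% of all genes. The median difference was 0.28, and the count towards KO is near the background share. The 3 genes past 2-fold were Nhp2, an H/ACA box core protein, at 4.21, 1.19, 0.626 and 0 FPKM in WT and 5.69, 1.66, 4.55 and 7.94 FPKM in KO, Znhit3, an assembly factor of C/D box particles, with a 3.95-fold higher mean in KO, and Shq1, a chaperone of dyskerin, with a 2.07-fold higher mean. Znhit3 was at 0.317 to 1.59 FPKM in WT and 2.65 to 5.95 FPKM in KO, without overlap, and Nhp2 and Shq1 overlapped. The share of all genes without overlap is not given here. Dkc1, which encodes dyskerin, averaged 81.1 ± 16.6 FPKM in WT and 75.3 ± 10.8 FPKM in KO, and Nop56 averaged 64.3 ± 15.0 and 80.4 ± 12.7 FPKM (SD, 4 oocytes each). Fbl, the gene of fibrillarin, was lower, at means of 1.65 ± 1.08 FPKM in WT and 2.97 ± 2.10 FPKM in KO.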

How the data were processed

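Each of the 8 samples is a single oocyte. Per the labels' protocols, cDNA was made with a SMARTer kit, with ERCC spike-in RNA added, and sequenced on an Illumina HiSeq instrument. The deposited values are FPKM, as made by the authors. Tools in the submitters' processing notes are TopHat2 2.0.2, Bowtie 0.12.8, edgeR 3.1.10 and HTSeq, on build mm9, with no roles stated. The annotation, gene lengths, use of strand and treatment of reads shared by genes were not given in the sources used here, so counts of rows within exons of other genes may depend on them. No ERCC values were used, and levels are relative within a library.

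The low values of a library lie 1 read apart, and from this step whole reads (tolerance 0.0001) were recovered for all 18416 genes with a read. All 33 members gave whole reads with their GENCODE M21 length. Hosts (the same-strand gene around the snoRNA, the most expressed where several), exons and sequences came from GENCODE M21 (GRCm38) by gene identifier. No coordinates were carried between builds.

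Genes with an FPKM of at least 1 in at least 4 oocytes were compared, by ratios of mean FPKM (2-fold) and by log2(FPKM + 1). For genes at 0 in a genotype, a level of 3 reads per library served as the reference. No fold is given for them. The text names the 8 most abundant genes of each class, compared genes at 2-fold or more, their hosts, genes of hosts with at least 3 members, and a list of snoRNA particle genes, and other genes named were chosen after their values were seen. Members and lists were chosen with earlier results of these data known. No test was run, as each genotype counts as 1 sample. Alternatives covered pseudocounts, filters, scaling, host choice and leaving out each oocyte. Python 3.11.15, pandas 2.3.3 and numpy 2.4.6 were used, and the steps were tested on simulated data.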

Additional observations from a re-analysis of the deposited data

Results flagged for a closer look

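A value was picked out where 1 oocyte lay far from the other 3 of its genotype, by the gap to its nearest neighbour relative to the whole range. Of 107 groups of 4 oocytes examined, 13 (12.1%) were picked out. Chance gives about 1 in 20 for continuous values, a share that does not apply to genes at 0 in most oocytes, so the number picked out is not read as an excess. KO oocyte 3 was high for Snora30 (32.9 FPKM, against 5.75 to 9.25 in the others), Snora7a (6.59 FPKM, against 0.302 to 1.13), Snord13 (0.740 FPKM, against 0) and the summed snoRNA genes without Snora47 (74.2 FPKM, against 20.3 to 29.2). WT oocyte 2 was high for Snord118 (4.58 FPKM, against 0.390 to 0.738). WT oocyte 1 was high for the host Zbed3 (2677 FPKM, against 1495 to 1613) and for Gar1, an H/ACA box core protein gene (8.22 FPKM, against 1.89 to 2.53). WT oocyte 4 was high for the host Srcap (0.332 FPKM, against 0.0045 to 0.016).

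C/D box genes with reads in 1 oocyte of a genotype were picked out as well. These were Snord107 in WT oocyte 5 (2.63 FPKM), Snord49b in WT oocyte 5 (1.10 FPKM) and KO oocyte 5 (0.944 FPKM), Snord49a in WT oocyte 4 (1.66 FPKM) and Snord65 in KO oocyte 6 (0.586 FPKM), with the other oocytes of the genotype at 0. They rest on 2 to 7 reads.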

How the results depend on the processing

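Counts set the limits: 19 of the 33 genes hold fewer than 20 reads, and 1 C/D box gene could be compared between genotypes. No paired analysis was possible because no test was run and the labels name no female. Neither pseudocount nor filter bears on the ratio of sums. Without any filter, over 33 genes, the median KO minus WT difference was -0.019 in place of 0.34, and 10 genes passed 2-fold towards KO and 10 towards WT, in place of 2 and 0. With a pseudocount of 0.1 the Snord difference was -0.81 in place of -0.22, and the medians against the host were -5.59 for Snord and -4.38 for Snora genes. Without members in annotated exons these medians were -5.80 and -1.71, and rho was -0.10 in place of 0.14. With members of at least 20 reads the Snord median, of 1 gene, was 0.17. Without WT oocyte 2 and KO oocyte 3 the filter left 3 genes, of which 0 passed 2-fold towards KO and 0 towards WT, and their median was 0.063. Snora75 and Snora33, no longer among them, were then 4.35-fold and 2.03-fold higher. Scaling to reads in listed genes added Snora7a (2.03-fold) to the genes at least 2-fold higher.

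Leaving out single oocytes gave medians of 0.12 to 0.72 for all compared genes, 0.21 to 0.74 for Snora and -0.43 to 0.093 for Snord, where the positive value is that without KO oocyte 6, whose Snord17 level was 0. It gave 1 to 4 genes at least 2-fold higher and 0 to 1 lower, which was Snora21 without WT oocyte 1 or KO oocyte 1. The ratio of sums was lowest at 0.863, without KO oocyte 3, and highest at 1.83, without WT oocyte 2. Genes above their host numbered 3 (without WT oocyte 2, which put Snora21 and Snord17 below theirs) to 5, the medians against the host ran from -4.17 to -3.67 for Snord and -3.55 to -3.25 for Snora, and rho from 0.05 to 0.20. For changes with other settings, the cause was not tested.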

Other observations

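Other short RNA genes were also read in these libraries. Summed FPKM of snoRNA rows outside the Snora and Snord names was 107.1, 198.0, 101.0 and 230.4 in the WT oocytes and 267.2, 218.1, 285.2 and 503.1 in the KO oocytes, so all but KO oocyte 3 lay above every WT oocyte. Summed rows annotated as snRNA, a class that includes RNAs of the spliceosome, were at 28.2 to 45.7 FPKM in WT. They were at 57.5 to 73.2 FPKM in KO. Over all genes compared, 18.3% passed 2-fold towards KO and 6.84% towards WT. How often the genotypes separate for other sums is not given here, so the separation is not read as particular to snRNA rows. Of these 1086 rows 48 had a read, and the sum does not give the level of a particular spliceosomal RNA. Summed miRNA gene rows were at 107.7 to 398.5 FPKM in WT and 241.4 to 667.0 FPKM in KO and overlapped. The reads outside listed genes, given above, were likewise higher in every KO library than in every WT library, and their part in these sums was not tested.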
